A study of Mus musculus with 2 samples.

Results

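Vascular endothelial growth factors (VEGFs) and their receptors were described in the heart through 9 genes chosen by name: the ligands Vegfa, Vegfb, Vegfc and Pgf, the receptor tyrosine kinases Flt1, Kdr and Flt4, and the co-receptors Nrp1 and Nrp2. They are 9 of the 55536 mouse genes in the gene tables, and all 9 were found, with 45 annotated transcripts. Total RNA was sequenced from whole hearts of female B6CASTF1/J mice aged 36 days, the first-generation hybrid of C57BL/6J and CAST/EiJ, from 300 ng of RNA per library with ERCC spike-in RNAs added. The 2 libraries come from animal 3 (replicate 1) and animal 4 (replicate 2), which the labels call biological replicates although both carry the same donor identifier. They form 1 group, for which the labels name no treatment, so levels, transcript make-up and the difference between the hearts can be described, and no condition can be tested. Replicates 1 and 2 held 39053339 and 38332179 expected counts, where a gene without reads could still have up to 3 counts, or 0.0772 and 0.0786 CPM.

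VEGF ligands are secreted dimers that bind receptor tyrosine kinases on endothelial cells and drive the growth, survival and permeability of vessels. VEGF-A binds Flt1 (VEGFR1) and Kdr (VEGFR2, the main signalling receptor of blood vessels), VEGF-B and placental growth factor bind Flt1 alone, and VEGF-C binds Flt4 (VEGFR3, the receptor of lymphatic vessels) and, once processed, Kdr. Neuropilins lack a kinase and hold ligands for these receptors, and they also serve class 3 semaphorins. In the heart, muscle cells make much of the VEGF-A and VEGF-B, and the receptors sit mostly on the capillary endothelium between them.

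The transcripts of 4 members differ in parts that decide where the protein goes or what it binds, and these parts are printed here because the shares of transcripts given below refer to them. All are GENCODE M21 transcripts on mm10, read 5′ to 3′ along the transcript. The Vegfa coding ends begin with exon 5 (chr17:46024065-46024094, minus strand) and stop before the stop codon in exon 8. Capitals mark exon 7 (chr17:46020991-46021122, 132 bases) in Vegfa-202, and exon 6 (chr17:46022277-46022348, 72 bases) followed by exon 7 in Vegfa-207. These exons encode the basic stretches that bind heparan sulphate and hold the ligand in the matrix, and Vegfa-201 lacks both.
Vegfa-201: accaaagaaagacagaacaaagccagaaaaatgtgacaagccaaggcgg
Vegfa-202: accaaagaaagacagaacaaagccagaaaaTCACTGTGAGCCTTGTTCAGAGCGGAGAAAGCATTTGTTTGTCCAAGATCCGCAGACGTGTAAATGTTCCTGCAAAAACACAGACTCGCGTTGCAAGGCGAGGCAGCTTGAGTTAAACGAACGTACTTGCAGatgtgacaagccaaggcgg
Vegfa-207: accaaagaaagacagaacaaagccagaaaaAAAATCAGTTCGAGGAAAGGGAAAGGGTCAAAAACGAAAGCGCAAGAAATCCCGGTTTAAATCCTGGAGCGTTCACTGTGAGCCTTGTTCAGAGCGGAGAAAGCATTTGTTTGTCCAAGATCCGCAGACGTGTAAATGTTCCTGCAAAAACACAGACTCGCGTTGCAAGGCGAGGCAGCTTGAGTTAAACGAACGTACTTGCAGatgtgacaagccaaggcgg

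The 2 coding transcripts of Vegfb differ in where exon 6 begins. Capitals mark the 101 bases (chr19:6985496-6985596, minus strand) that only Vegfb-201 includes. They add 33 whole codons and 2 bases, so the bases that follow are read in another frame in the 2 forms. Both coding ends start with exon 5 (chr19:6985805-6985840), and the form without the added bases has the basic, matrix-binding end.
Vegfb-202: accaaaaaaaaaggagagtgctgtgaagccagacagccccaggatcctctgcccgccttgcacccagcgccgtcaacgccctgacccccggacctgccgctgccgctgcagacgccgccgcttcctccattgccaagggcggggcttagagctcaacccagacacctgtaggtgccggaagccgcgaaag
Vegfb-201: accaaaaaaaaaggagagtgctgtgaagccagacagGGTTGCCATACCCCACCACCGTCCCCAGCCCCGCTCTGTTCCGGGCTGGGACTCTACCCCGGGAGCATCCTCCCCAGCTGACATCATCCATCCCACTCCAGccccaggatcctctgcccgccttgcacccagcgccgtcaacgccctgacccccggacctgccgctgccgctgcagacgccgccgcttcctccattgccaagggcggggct

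Flt1 makes the full-length receptor when exon 13 is joined to exon 14, and a soluble, ligand-trapping form when the transcript reads on into intron 13. The last 30 bases of exon 13 (chr5:147639225-147639254, minus strand) are in lower case. Capitals mark the first 92 bases of exon 14 (chr5:147634432-147634523) in Flt1-202 and the 92 coding bases of intron 13 (chr5:147639133-147639224) in Flt1-203.
Flt1-202: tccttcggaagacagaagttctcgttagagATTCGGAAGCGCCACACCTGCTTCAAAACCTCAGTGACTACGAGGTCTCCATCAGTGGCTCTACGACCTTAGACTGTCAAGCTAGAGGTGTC
Flt1-203: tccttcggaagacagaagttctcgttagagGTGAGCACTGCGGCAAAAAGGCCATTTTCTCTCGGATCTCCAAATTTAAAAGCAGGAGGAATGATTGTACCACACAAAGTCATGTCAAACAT

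Nrp2 transcripts share an alternative exon whose short form has 21 bases (chr1:62786281-62786301, plus strand) and then take 1 of 2 last exons, which encode different membrane anchors and tails. In lower case after it stand the first 60 bases of the Nrp2a last exon (chr1:62815333-62815392). Capitals mark a 51-base exon (chr1:62812534-62812584) in Nrp2-202 and the first 60 bases of the Nrp2b last exon (chr1:62795709-62795768) in Nrp2-205.
Nrp2-204: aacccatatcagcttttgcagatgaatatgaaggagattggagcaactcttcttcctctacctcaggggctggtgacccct
Nrp2-202: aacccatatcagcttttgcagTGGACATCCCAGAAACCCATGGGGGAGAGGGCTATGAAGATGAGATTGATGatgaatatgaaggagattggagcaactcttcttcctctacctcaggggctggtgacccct
Nrp2-205: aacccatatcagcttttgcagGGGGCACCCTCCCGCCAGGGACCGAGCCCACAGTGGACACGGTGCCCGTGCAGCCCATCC

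Levels are given in TPM, an abundance scaled by transcript length and to the same sum in each library, so that genes can be compared, as the mean ± SD over n = 2 hearts. The deposited data hold a first quantification, with a gene and a transcript table, and a second one per transcript whose values were summed per gene. All 9 members had a mean of at least 1 TPM, which 11260 of the 22015 nuclear protein-coding genes reached, and their median was 24.6 TPM. The order ran from Vegfb through Vegfa, Nrp1, Kdr, Flt1, Nrp2, Flt4 and Vegfc to Pgf in both quantifications. In each the lower library of one member lay above the higher library of the next, except for Vegfc and Pgf, whose libraries overlapped. These are levels in whole tissue, where fewer cells of a type and less RNA per cell cannot be told apart.

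**Figure D1:**
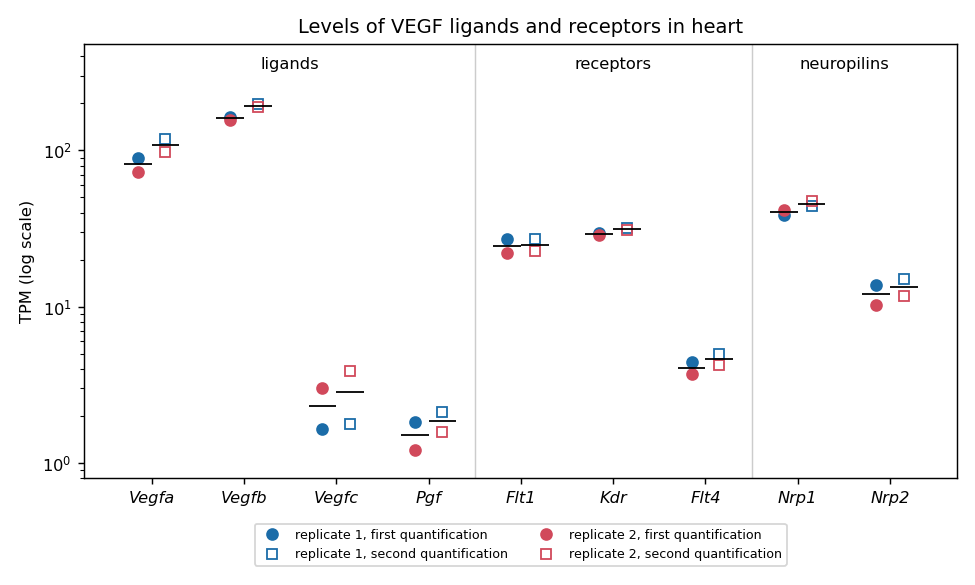
TPM on a log axis for each of the 9 genes, with circles for the first and squares for the second quantification, colour for the replicate and a black line for the mean of each pair. Vegfb at 161 TPM and Vegfa at 81.6 TPM (means, first quantification) lay above all receptors, and Vegfc at 2.33 and Pgf at 1.51 TPM lay lowest.

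Among the ligands, Vegfb (ENSMUSG00000024962.13, chr19:6982473-6987651), which binds Flt1 and is known for its high level in heart muscle, was highest. It measured 164 TPM in replicate 1 and 158 TPM in replicate 2, a mean of 161 ± 4.77 TPM that ranked 332 among the nuclear protein-coding genes. The values of the 2 hearts were close, at 5742 and 5330 expected counts. Vegfa (ENSMUSG00000023951.17, chr17:46016993-46032369), the ligand of Flt1 and Kdr, measured 89.9 and 73.2 TPM, a mean of 81.6 ± 11.8 TPM at rank 681. Vegfb thus exceeded Vegfa 1.83-fold in replicate 1 and 2.15-fold in replicate 2. These are levels over all transcripts of a gene. Transcripts that are not protein-coding held 34.2% ± 3.53 of Vegfa and 0.416% ± 0.0211 of Vegfb, so their coding TPM lay further apart. Of the summed TPM of the 4 ligands, 258 and 235 TPM, Vegfb made up 65.4% ± 2.32 and Vegfa 33.0% ± 2.64. On expected counts, which are not scaled by length, the shares were 51.7% ± 3.55 and 46.4% ± 3.94, since Vegfa transcripts are longer.

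Vegfc (ENSMUSG00000031520.6, chr8:54077606-54187096), the ligand of lymphatic vessels, was low, with 1.64 TPM in replicate 1 and 3.02 TPM in replicate 2. These values rest on 110 and 161 expected counts. Pgf (ENSMUSG00000004791.7, chr12:85166635-85177790), placental growth factor, had 1.82 and 1.21 TPM from 79 and 53 counts. Each made up under 1.5% of ligand TPM in each library, at 0.960% ± 0.458 for Vegfc and 0.610% ± 0.135 for Pgf. Vegfa was 49.4 and 60.5 times as high as Pgf, which like Vegfb binds Flt1 alone. Vegfd, a second Flt4 ligand outside the 9 genes, had 0.77 and 0.67 TPM, below both in each library.

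Among the receptors, Kdr (ENSMUSG00000062960.10, chr5:75932827-75978458) measured 29.8 and 28.9 TPM, a mean of 29.3 ± 0.679 TPM at rank 1944. Flt1 (ENSMUSG00000029648.13, chr5:147561604-147726011) measured 27.1 and 22.1 TPM, a mean of 24.6 ± 3.50 TPM at rank 2338. Both libraries of Kdr lay above both of Flt1, by 1.10-fold in replicate 1 and 1.30-fold in replicate 2. Flt4 (ENSMUSG00000020357.3, chr11:49609263-49652739) measured 4.44 and 3.70 TPM, a mean of 4.07 ± 0.523 TPM at rank 8169. Kdr made up 50.7% ± 2.94, Flt1 42.3% ± 2.60 and Flt4 7.002% ± 0.334 of the summed receptor TPM of 61.3 and 54.7. Flt1 was 6.10 and 5.98 times as high as Flt4, a ratio that was nearly the same in both hearts.

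Of the neuropilins, Nrp1 (ENSMUSG00000025810.9, chr8:128358604-128503363), the co-receptor of VEGF-A and Kdr, measured 38.8 and 41.9 TPM, a mean of 40.4 ± 2.14 TPM at rank 1366. It was higher than each of the 3 receptors in both hearts, and 1.30 and 1.45 times as high as Kdr. Nrp2 (ENSMUSG00000025969.15, chr1:62703285-62818695), the co-receptor of VEGF-C and Flt4, measured 13.9 and 10.2 TPM, a mean of 12.04 ± 2.59 TPM at rank 4363. Nrp1 made up 77.0% ± 4.74 of the neuropilin TPM (65.4% ± 5.62 of the expected counts), which summed to 52.7 and 52.1 TPM. That sum differed less between the hearts than either neuropilin did, as Nrp1 was higher and Nrp2 lower in replicate 2. Nrp2 lay 3.12 and 2.76 times above Flt4.

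The second quantification gave a higher mean TPM for all 9 members, from 1.01 times for Flt1 to 1.33 times for Vegfa. Over all genes with a mean of at least 1 TPM, the median of this ratio was 1.16. Vegfb reached 194 ± 5.35 TPM and Vegfa 109 ± 14.8 TPM there. Vegfb made up 63.2% ± 2.18 of the ligands, Kdr 51.7% ± 2.39 of the receptors and Nrp1 77.4% ± 4.23 of the neuropilins, each within 1 SD of the first quantification.

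To compare the hearts, log2 ratios of replicate 2 over replicate 1 were formed from expected counts, scaled to edgeR's effective library sizes, with a 95% exact interval that covers counting error only. With 1 library per animal there is no test. At least a 1.5-fold ratio either way was used to name a difference, and of the 13745 genes whose counts summed to 50 or more 5.17% passed it (2.51% higher and 2.66% lower in replicate 2). Of the 9 members, 1 passed it, Vegfc. Its ratio was 0.65 (interval 0.29 to 1.01), higher in replicate 2, and 0.77 in the second quantification, where 5.22% of 14050 genes passed (2.65% higher and 2.57% lower). On the scale of the library totals it was 0.57, just short of 1.5-fold. Besides the higher count, the short transcript Vegfc-203, listed with 0.18 and 0.68 TPM, took a larger share in replicate 2, so that the TPM values of the gene lie further apart than its counts.

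Within 1.5-fold, Nrp2 was lower in replicate 2 by 0.34 (log2 ratio -0.34, interval -0.42 to -0.25) and Vegfa had a ratio of -0.32 (interval -0.38 to -0.26). Flt4 had -0.20 (interval -0.35 to -0.06) and Flt1 -0.19 (interval -0.25 to -0.13), while Nrp1 had 0.17 (interval 0.11 to 0.23). Kdr at 0.01 (interval -0.04 to 0.07), Vegfb at -0.01 (interval -0.06 to 0.05) and Pgf at -0.47 (interval -1.004 to 0.05) had intervals that include 0. The median over the 9 members was -0.19, with 3 higher and 6 lower in replicate 2, against 0.00 over all genes tested. The median size of the ratio was 0.20 for the members and 0.13 for all genes. Per spike-in count in place of edgeR's effective library sizes, all ratios shift up by 0.24. On that scale 6 members were higher and 3 lower, with Flt1 and Flt4 at 0.05 and 0.04. Of all genes past 1.5-fold, 48.6% were higher in replicate 2 on the main scale, 83.9% per spike-in count and 33.8% per library total.

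**Figure D2:**
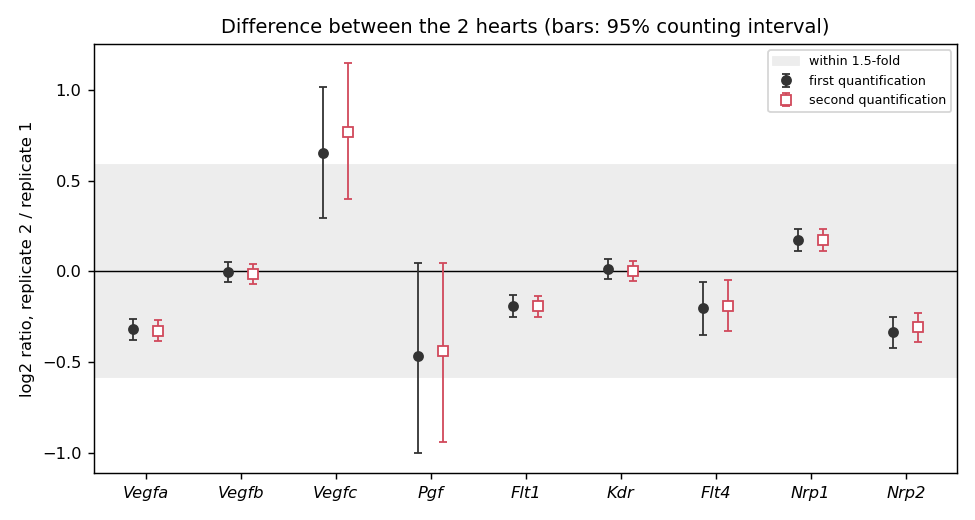
Log2 ratio of replicate 2 over replicate 1 for each gene, with circles for the first and squares for the second quantification, bars for the 95% counting interval and the grey band for ratios within 1.5-fold. Vegfc at 0.65 and 0.77 lies outside the band, and the other 8 genes lie inside it.

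All 12 blood endothelial markers were detected at 1 TPM or more in both hearts, from Robo4 at 10.8 ± 0.205 TPM to Egfl7 at 59.4 ± 9.73 TPM, and the list summed to 416 and 373 TPM. None of the 12 passed 1.5-fold, and their median log2 ratio was -0.07. Relative to the geometric mean of these markers, 29.4 and 27.0 TPM, Kdr stood at 1.01 and 1.07, Flt1 at 0.920 and 0.821, and Flt4 at 0.151 and 0.137. Nrp1 stood at 1.32 and 1.55 and Nrp2 at 0.471 and 0.379. On this scale Nrp1 and, by less, Kdr were higher in replicate 2, and Flt1, Flt4 and Nrp2 were lower.

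Of the 7 lymphatic endothelial markers, 6 were at 1 TPM or more in both hearts, and the list summed to 57.5 and 50.8 TPM. Itga9 (21.9 and 17.85 TPM) and Prox1 weighed most in that sum, and Foxc2 was lowest (0.92 and 0.88 TPM). Lyve1, a hyaluronan receptor of lymphatic vessels that macrophages also carry, was lower in replicate 2 (8.67 and 5.08 TPM, log2 ratio -0.81). The other 6 did not pass 1.5-fold in either direction. They include Prox1, a transcription factor of lymphatic cells that heart muscle also expresses, at 18.6 and 20.6 TPM. Heart muscle was well represented, with 7 of 7 cardiomyocyte markers detected and sums of 30507 and 30310 TPM. The largest differences among the 10 marker lists lay in blood and fat. At least 1.5-fold lower in replicate 2 were 6 of 6 erythroid genes (sums 36363 and 11883 TPM) and 5 of 5 brown adipocyte genes (121 and 38.4 TPM). Over all 13745 genes tested, 2.66% were lower by this much and 5.17% passed it either way. All fibroblast (6), pericyte and smooth muscle (8), macrophage (6) and mesothelial (4) markers were detected and none passed 1.5-fold, and of 5 endocardial markers 1 passed it, Hapln1, with 33 and 17 counts and a log2 ratio of -0.83 (interval -1.79 to 0.03). No gene of the 10 lists was at 0 in both libraries. What part these cells had in the difference of Vegfc, Vegfa or Nrp2 was not tested.

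Transcripts were compared by their share in the TPM of their gene. Of the 45 member transcripts, 25 are protein-coding, 15 are annotated as retaining an intron and 5 as processed transcripts without a coding sequence. The same transcript led in both quantifications for all 9 genes, and 8 transcripts had 0 expected counts in both libraries of the first. Kdr-201 held 97.9% ± 0.794, Flt4-201 95.3% ± 0.0956 and Nrp1-201 93.04% ± 1.70 of their genes. Each is the only annotated protein-coding transcript of its gene, so coding forms outside the annotation could not be seen. Nrp1-203, which retains an intron, held 4.97% and 3.39% of Nrp1, and 8.45% and 6.77% in the second quantification.

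**Figure D3:**
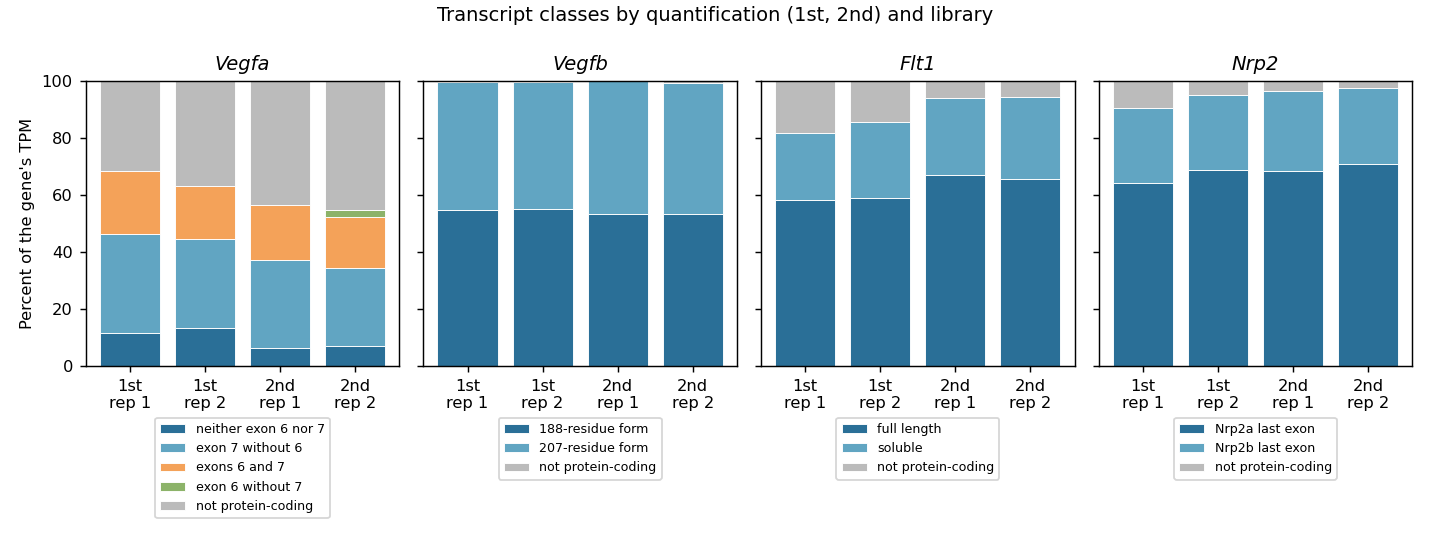
Stacked bars from 0 to 100 give the percent of each gene's TPM by transcript class for Vegfa, Vegfb, Flt1 and Nrp2, each with the first and second quantification of replicates 1 and 2. Transcripts that are not protein-coding (grey) take on average 34.2% of Vegfa by the first quantification and 44.3% by the second, and under 1% of Vegfb.

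In the first quantification the coding TPM of Vegfa divided among 3 forms. The form with exon 7 but not 6, Vegfa-202, had 31.2 and 22.9 TPM. It made up 50.8% and 49.5% of the coding TPM, a mean of 50.2% ± 0.961. The form with both exons, Vegfa-207, had 19.8 and 13.6 TPM, or 30.8% ± 1.99. The form with neither, Vegfa-201, had 10.4 and 9.79 TPM, or 19.0% ± 2.95. Counted from the start codon of Vegfa-201, the 3 coding sequences give 190, 214 and 146 residues, signal peptide included. GENCODE annotates Vegfa-202 and Vegfa-207 from an earlier start, with 600 coding bases in exon 1 in place of 66.

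In both hearts the exon 7 form lay above the form with both exons, 1.58-fold and 1.68-fold, and above the form with neither, 3.00-fold and 2.34-fold. The second quantification put the exon 7 form at 51.9% ± 3.31, the form with both at 33.8% ± 1.11 and the form with neither at 12.1% ± 1.17. A further coding form, Vegfa-203 with exon 6 but not 7, was at 0 in the first quantification and took 0 and 4.59% of coding TPM in the second. The order of the 3 main forms held, while all 3 shares lay outside the replicate spread of the first quantification. None of these transcripts has a base that no other Vegfa transcript holds. The forms do differ in how their exons are joined, and reads across these joins were not counted here. Their shares also rest on how shared reads were divided. The annotated 3′ end of Vegfa-207 is also shorter, with 315 noncoding bases after the stop codon against 1865 in Vegfa-201 and Vegfa-202.

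Transcripts annotated with a retained intron held 34.2% ± 3.53 of Vegfa TPM, and 44.3% ± 1.30 in the second quantification. In the first they were mainly Vegfa-206 (13.1 and 11.8 TPM) and Vegfa-209 (11.6 and 12.1 TPM), followed by Vegfa-208 (3.81 and 2.76 TPM). Vegfa-206, which runs from the end of the intron before exon 4 to exon 8 (640 bases), has no base of its own, whereas Vegfa-209, which ends in the intron after exon 3, has 151 and Vegfa-208, which starts in the intron before exon 7, has 250. Vegfa-208 was higher in the second quantification, at 15.7 and 8.95 TPM, and Vegfa-210 held 4.42% and 6.64% of the gene there against 0 and 0.314% in the first. Of the 3285 protein-coding genes with such a transcript and a mean of at least 10 TPM, the median share was 3.74%. On the mean TPM, Vegfa stood at 34.0%, and 7.03% of these genes were as high or higher (4.41% in the second quantification). These transcripts are short and weighed less in expected counts than in TPM: in replicate 1 Vegfa-206 had 223 and Vegfa-209 133 counts, against 3287 for Vegfa-202.

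**Figure D4:**
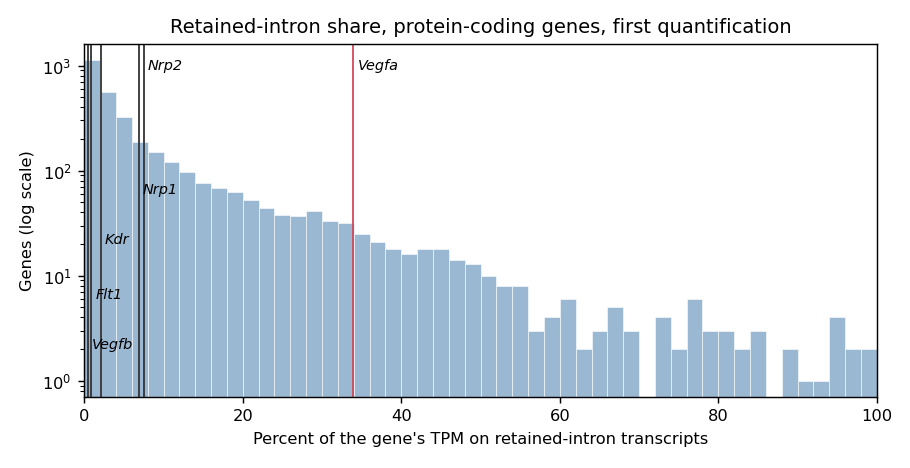
Number of protein-coding genes (log axis) by the percent of their TPM on retained-intron transcripts in the first quantification, for 3285 genes with a mean of at least 10 TPM. Lines mark the 6 VEGF genes among them, of which Vegfa lies at 34.0% and the others at or under 7.48%.

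**Figure D5:**
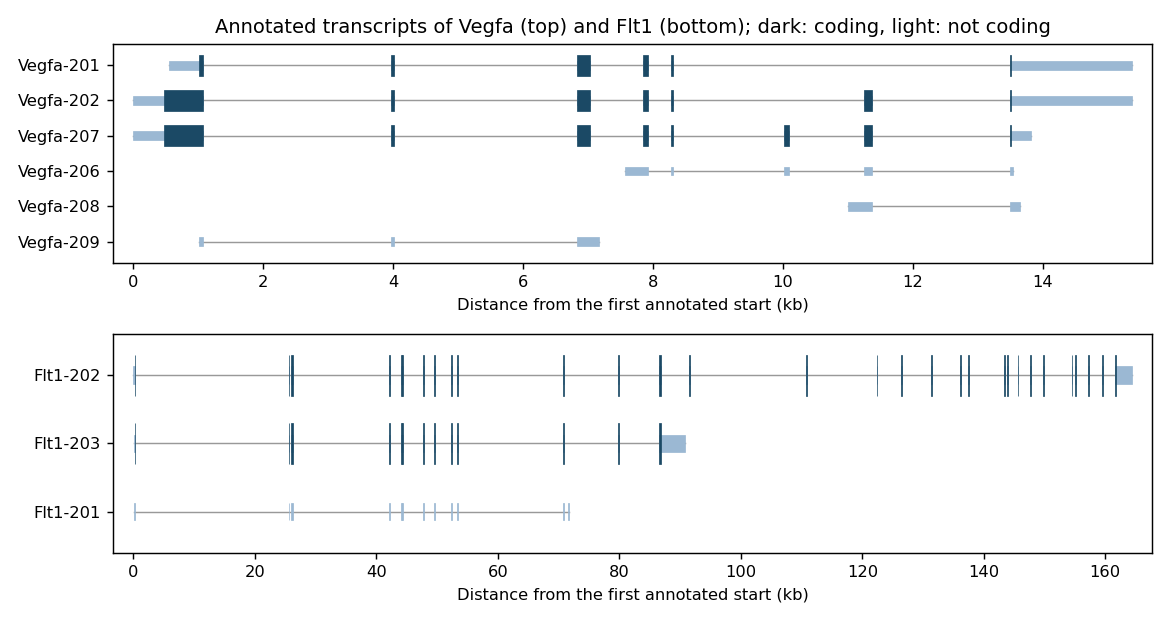
Exons of named transcripts of Vegfa (top) and Flt1 (bottom) by distance in kb from the first annotated start, with tall dark boxes for coding and low pale boxes for noncoding bases. Vegfa-202 and Vegfa-207 differ by exon 6 and by the length of the last exon, and Flt1-203 ends in a long noncoding stretch after exon 13.

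Vegfb was nearly all coding, and its coding forms lay close in level, with Vegfb-202 the higher. Vegfb-202, the 188-residue form with the matrix-binding end, had 90.0 and 87.0 TPM, or 55.0% ± 0.301 of the gene. Vegfb-201, the 207-residue form that is freely secreted, had 73.7 and 70.0 TPM, or 44.6% ± 0.322. The ratio of the first to the second was 1.22 and 1.24, and 1.15 and 1.17 in the second quantification. It lay above 1 in both hearts and both quantifications.

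Flt1 consisted of a full-length and a soluble form. Flt1-202, the full-length receptor of 1333 residues, had 15.7 and 13.1 TPM, or 58.6% ± 0.669 of the gene. Flt1-203, the soluble form of 688 residues, had 6.38 and 5.85 TPM, or 24.99% ± 2.02. The soluble form stood at 0.406 and 0.448 of the full-length form, and at 0.399 and 0.443 in the second quantification. They have 4495 and 4066 bases that no other Flt1 transcript holds, and the quantifications differed in this ratio by less than the spread between the hearts. A noncoding transcript, Flt1-201, which ends after exon 11, had 4.64 and 2.98 TPM, 17.1% and 13.5% of the gene, but 4.89% and 3.74% in the second quantification. Set against the full-length form of Flt1 alone, Kdr-201 was 1.84 and 2.17 times as high, a wider gap than between the genes.

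Nrp2 transcripts with the Nrp2a last exon held 66.6% ± 3.18 of the gene, and those with the Nrp2b last exon 26.2% ± 0.130. Nrp2-204, an Nrp2a transcript without the 51-base exon, had 5.70 and 5.77 TPM. Nrp2-202, which includes that exon, had 2.62 and 1.26 TPM, and Nrp2-205, the main Nrp2b transcript, 3.21 and 2.42 TPM. The 51-base exon was in 30.5% of Nrp2a-type TPM in replicate 1 and 17.9% in replicate 2, and in 35.7% and 27.4% in the second quantification. The lower Nrp2 level of replicate 2 was not seen in the listed level of Nrp2-204, whose log2 ratio was 0.07 (interval -0.04 to 0.19). Together the Nrp2a transcripts had 8.92 TPM in replicate 1 and 7.03 TPM in replicate 2. No Nrp2a transcript has a base that no other Nrp2 transcript holds. They do differ in how their exons are joined, and reads across these joins were not counted here. Their single levels also rest on how shared reads were divided, which the interval does not cover. Nrp2-207, which retains an intron, held 9.31% and 4.995% of the gene, and 3.63% and 2.49% in the second quantification.

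Of the 27 member transcripts whose counts summed to 50 or more, 5 passed 1.5-fold between the hearts, all lower in replicate 2. Over all transcripts, 23.8% of 28890 passed (12.1% higher and 11.8% lower), so that a share of this size is near the background. The 5 were Kdr-203 (64.0 and 17.9 expected counts, log2 ratio -1.70), Nrp2-201 (57.5 and 31.5, -0.75), Nrp2-202 (514 and 240, -0.99), Nrp2-207 (110 and 42.3, -1.28) and Nrp2-203. Nrp2-203 had 103 expected counts in replicate 1 and 0 in replicate 2. All 5 were lower in the second quantification as well. Nrp2-203 differs from Nrp2-204 by the longer form of the alternative exon alone, and neither has a base of its own.

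Vegfc and Pgf were too low for firm shares. Vegfc-201 held 89.0% and 68.5% of Vegfc and Vegfc-203 11.04% and 22.5%, on 2.60 and 9.44 expected counts for the latter. The noncoding Vegfc-202 was listed with 0 and 3.29 counts. Pgf-201 held 84.0% and 87.6% of Pgf, but 51.3% and 50.02% in the second quantification, where Pgf-204 took 26.3% and 24.6%. The remaining Pgf transcripts past 5% of the gene in a library, Pgf-202 and Pgf-203, rest on at most 5.37 expected counts.

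The other genes of the pathway were given by 6 lists. None of their genes whose counts summed to 50 or more passed 1.5-fold between the hearts. Of 8 genes that process VEGF-C or related ligands, 6 were at 1 TPM or more in both hearts, with a median of 4.23 TPM. The protease Ctsd (330 and 299 TPM) and the proprotein convertase Furin (46.7 and 40.2 TPM) were highest. Ccbe1 (2.21 and 2.86 TPM) and Adamts3 (2.20 and 2.06 TPM), which together cleave pro-VEGF-C, lay at a level like that of Vegfc itself, and Adamts14 was lowest (0.29 and 0.30 TPM). Ccbe1 had a log2 ratio of 0.43 (interval 0.22 to 0.64), higher in replicate 2 as Vegfc was, and Adamts3 had 0.03 (interval -0.25 to 0.31).

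All 12 genes of receptor phosphatases and trafficking were at 1 TPM or more in both hearts, with a median of 9.61 TPM. They ran from the phosphatase Ptprj (3.47 and 3.00 TPM) to Ptpn11, which encodes the signalling phosphatase SHP2 (74.6 and 59.95 TPM). Of 30 genes of downstream signalling, 29 were at this level, with a median of 18.4 TPM and a median log2 ratio of -0.08. The heat shock protein Hspb1, a target of the p38 kinase branch, was highest (153 and 146 TPM). The adaptor Sh2d2a, with 2 and 3 counts, was lowest.

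Of 12 semaphorin and plexin genes, 9 were at 1 TPM or more in both hearts, with a median of 5.94 TPM, below both neuropilins. Plxnd1, a plexin of endothelial cells, was highest (34.4 and 25.2 TPM, log2 ratio -0.33), and Sema3e, its ligand, lowest (0.12 and 0.13 TPM). The angiopoietin and Tie list ran from Tie1 (26.9 and 24.0 TPM) through its fellow receptor Tek (15.1 and 14.8 TPM) and the ligand Angpt1 (11.98 and 12.6 TPM) to Angpt2 (0.63 and 0.80 TPM) and Angpt4 (0.03 and 0.07 TPM). Its 2 receptors thus lay below Kdr in both hearts.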

How the data were processed

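Per the deposited description files, the authors quantified the reads on mm10 and gene annotation M21. Which programs they ran is not given in the sources used here. Their first quantification holds deposited expected counts (estimated reads, not normalized), TPM and FPKM values and the percent of each transcript in its gene, per the file headers. The second holds deposited estimated counts and TPM values per transcript, summed here per gene. Each table's 26248 rows named only by a number, and the spike-ins, were left out of the comparisons. The reference is of C57BL/6J, and the effect of CAST alleles on the counts was not measured. Spike-ins took 0.532% and 0.427% and mitochondrial genes 31.8% and 35.1% of the counts and of the TPM, respectively.

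Expected counts were rounded, 0.5 was added, and ratios were scaled with TMM (edgeR 4.0.16, in R 4.3.3). Intervals are exact Clopper-Pearson intervals at 95% and cover counting error alone, not the variation between animals. With 1 library per animal, that variation cannot be told apart from technical variation. Without molecular identifiers several reads can stem from 1 molecule, which the intervals do not take into account. The calculation of the intervals was tested on simulated data. edgeR's common dispersion, with both libraries in 1 group, corresponds to a biological coefficient of variation (BCV) of 0.113. Shares of transcripts are of the gene's summed TPM or, where said, of the summed TPM of its coding transcripts. In the first quantification, gene-level counts of the 9 members were whole numbers with a posterior SD of 0. In the second, those of Vegfa and Nrp2 were fractional. Coordinates and sequences are from GENCODE M21. Nrp1 overlaps Mir1903 (0 counts in both libraries), and Nrp2 overlaps the antisense Gm29083 (0 counts in both) and Gm37121 (5 and 13 counts).

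Named are all 9 genes and their transcripts with at least 5% of the gene in any library of either quantification. From the pathway lists and the blood and lymphatic endothelial lists, the highest, the lowest and those past 1.5-fold are named. Any gene of a list of up to 8 may be named. Of the endocardial list only Hapln1 is named, and the other marker lists are given by counts of genes or sums. Kdr-203, Nrp2-201 and Nrp2-203 fall outside the rule for transcripts and were named after their values were seen. Vegfa-203 falls outside it as well. The genes, lists and rules were chosen with earlier results of these data known. Alternatives were the second quantification, posterior mean TPM, FPKM, other scalings (DESeq2 1.42.0 size factors, spike-ins, library totals), other count minimums, a 2-fold limit and leaving out each replicate or marker.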

Additional observations from a re-analysis of the deposited data

How the results depend on the processing

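No paired analysis was possible because both libraries belong to 1 group. The median level of the 9 genes was 24.6 TPM, 19.7 in FPKM and 62.5 when TPM was rescaled to nuclear protein-coding genes, and 22.1 to 27.1 leaving out 1 replicate. On counts, Vegfb made up 51.7% of the ligands and Nrp1 65.4% of the neuropilins. Leaving out 1 replicate, Vegfb ranged from 63.8% to 67.1%, Kdr from 48.6% to 52.8% and Nrp1 from 73.7% to 80.4%, and 7 to 9 genes stayed in their place (Vegfc and Pgf changed places in replicate 1 alone). The exon 7 form of Vegfa was 51.9% of coding TPM in the second quantification and 48.7% by posterior mean, and Vegfb-202 was 53.7% of coding Vegfb in the second quantification. The median log2 ratio of the 9 genes was 0.0512 on the spike-in scale and -0.27 on library totals. The number of members past the limit fell from 1 to 0 on library totals and at 2-fold. The number of genes past it was 710, against 1233 on the spike-in scale, 2248 with a summed count of at least 10, 7862 with any count and 214 at 2-fold. Kdr per endothelial marker level, 1.04 on average, was 0.959 in the second quantification and 0.955 to 1.11 with 1 marker left out. FPKM and the rescaled TPM multiply all genes of a library alike, so they change the unit only. The spike-in scale and the library totals shift all ratios alike, and shares on counts are not scaled by length. The cause of the remaining changes, such as those between the quantifications, was not tested. Of 119 further values for single genes or forms under an alternative, 81 stayed within the replicate spread or counting interval and 38 moved beyond it. A change of sign was counted only for a ratio past 1.5-fold, which Vegfc alone had, and 0 were counted. Ratios within 1.5-fold did change sign, such as those of Flt1 and Flt4 on the spike-in scale (0.05 and 0.04). A ratio between the hearts has no value without either library. With 1 library per heart, counts as low as those of Pgf leave an interval from -1.004 to 0.05.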
